A study of Mus musculus with 483 samples.

Results

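A set of 5 genes known as markers of endothelial tip cells was followed here in single mouse cells: Esm1, Angpt2, Pdgfb, Kcne3 and Plaur. They were taken by name as usual targets of Dll4-Notch restraint. The rule uses no measured value, but the genes and the lists used further on were chosen with earlier results of these data known. They are 5 of the 46078 genes in the count table, and all 5 had a read in at least 5% of cells, as did 15204 genes in all. Summed over all treated cells, Esm1 was lower by more than 2-fold, Angpt2 was slightly lower, Kcne3 and Pdgfb were slightly higher and Plaur was higher. Reads of all 5 came mostly from the endothelial clusters, and the differences between treatments varied in size and sign between subsets of the libraries.

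The collection held 483 cells, 49.5% of them labelled Ctrl and the others aDll4-treated. All were sorted as CD31+ kit+ CD45- from the AGM, which is the aorta with the gonads and mesonephros around it, and were sequenced by Smart-seq2, a full-length method. CD31 and Kit mark endothelial cells and budding blood progenitors, and lack of CD45 leaves out most mature blood cells. The labels give no meaning for aDll4, no dose, no time, no strain, no embryo age and no genotype, and no allele or agent shared by both groups. They name no embryo, animal or culture, so cells cannot be tied to animals and each treatment was 1 sample. No test between treatments was therefore run, no p-value is given, and no difference has a replicate check.

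The submitters placed every cell in 1 of 7 clusters by ICGS, a clustering method, run on these same cells, so levels by cluster are descriptions. The sum of 6 endothelial markers was 5424, 4852 and 3939 CPM, which is reads of a gene per 1000000 gene-assigned reads, in clusters 1, 2 and 3 and 64.1 to 324 CPM in clusters 4 to 7. Cluster 5 led in mesenchymal markers (12000 CPM), cluster 7 in megakaryocyte markers (10583 CPM), and clusters 6 and 7 in hematopoietic markers (1065 and 2121 CPM). The labels call all cells hematopoietic stem cells, and in clusters 1, 2 and 3 the 6 hematopoietic markers summed to 13.7, 18.4 and 97.1 CPM. Cells carried 123097 to 2870618 gene-assigned reads, with medians of 900286 in Ctrl and 869802 in treated cells. Library numbers formed 2 blocks with 6 runs of 96 numbers within them. Block 1 held 354 cells, 49.7% of them Ctrl, and block 2 held 63 Ctrl and 66 treated cells. Of the treated cells, 89.3% of block 1 were Y-positive with none Xist-positive, and 92.4% of block 2 were Xist-positive with none Y-positive. Ctrl cells of both blocks held both kinds. Block, sex of the embryos and treatment therefore cannot be told apart in full.

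A sprouting vessel is led by a tip cell that senses VEGF and carries much Dll4. Dll4 activates Notch in neighbouring stalk cells, and active Notch restrains the tip cell programme there. In the mouse retina, loss of Dll4-Notch signalling is known to give more tip cells and more expression of their genes. The 5 genes act at different points: Angpt2 and Pdgfb are secreted ligands, Esm1 is a secreted proteoglycan, Plaur is a surface receptor and Kcne3 is a channel subunit.

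Angpt2 (ENSMUSG00000031465, chr8:18690263-18741562, minus strand, mm10) encodes angiopoietin 2, a ligand of the receptor Tek that loosens vessels. It had 13889 reads and was read in 33.3% of cells, with a pooled level of 31.4 CPM or 8.51 CPM per kilobase of exon. Pdgfb (ENSMUSG00000000489, chr15:79995874-80014977, minus strand) encodes the growth factor with which endothelium draws pericytes. It had 33785 reads and was read in 65% of cells, at 76.3 CPM or 18.3 CPM per kilobase. Esm1 (ENSMUSG00000042379, chr13:113209659-113218098, plus strand) encodes endocan, which is induced by VEGF in tip cells. It had 49501 reads and was read in 47.6% of cells, at 111.9 CPM or 53.3 CPM per kilobase. Plaur (ENSMUSG00000046223, chr7:24462484-24475968, plus strand) encodes the urokinase receptor, which localises matrix-degrading protease activity at the cell surface. It had 15831 reads and was read in 41.2% of cells, at 35.8 CPM or 13.7 CPM per kilobase. Kcne3 (ENSMUSG00000035165, chr7:100176502-100184869, plus strand) encodes a single-span subunit that modulates potassium channels such as Kcnq1. It had 135274 reads and was read in 77.8% of cells, at 306 CPM or 171.8 CPM per kilobase, the highest level per length of the 5.

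Detection at low read numbers was common and sets how shares of cells are read. Of the 230 cells with an Esm1 read, 46.5% had only 1 to 3 reads. The corresponding shares were 28% for Angpt2, 20.1% for Pdgfb, 24.7% for Kcne3 and 17.6% for Plaur. In clusters 6 and 7, where Kcne3 was at 2.11 and 1.17 CPM, 57.6% of 33 cells and 12 of 20 cells still had a Kcne3 read, at median depths of 1112350 and 1018460 reads per cell. A share of cells is therefore given below as the share at 10 CPM or more. By that measure 24.4% of all cells carried Esm1, 20.7% Angpt2, 48.9% Pdgfb, 56.5% Kcne3 and 33.1% Plaur. A few cells held much of each gene: the 10 highest cells held 38.5% of Esm1 reads, 42.2% of Angpt2 reads, 25.04% of Pdgfb reads, 19.9% of Kcne3 reads and 27.6% of Plaur reads. The libraries do not mark the strand, and 4 of the 5 genes overlap another annotated gene. Angpt2 lies across Mcph1 (33.02 CPM, plus strand), so reads of these 2 genes are the least certain. Gzmk, which lies across Esm1, had no reads, Mir7213 in Pdgfb was at 0.02 CPM, and Gm41361 and Gm34821, which overlap Pdgfb and Kcne3, had no row of their own. Plaur overlaps no annotated gene.

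RefSeq promoters (GRCm38.p6), running from 250 bases before a transcription start to 50 after it, were at hand for 3 of the 5 genes. These 3 genes are shown because no promoter was at hand for Angpt2 or Pdgfb. All are on the plus strand: chr13:113209409-113209708 for Esm1, chr7:24462233-24462532 for Plaur, and chr7:100176420-100176719 and chr7:100178433-100178732 for the 2 starts of Kcne3. Capitals mark matches, on either strand, to the core of the Notch effector RBPJ (TGGGAA), the AP-1 motif (TGANTCA) and an ETS core (AGGAAG).
Esm1: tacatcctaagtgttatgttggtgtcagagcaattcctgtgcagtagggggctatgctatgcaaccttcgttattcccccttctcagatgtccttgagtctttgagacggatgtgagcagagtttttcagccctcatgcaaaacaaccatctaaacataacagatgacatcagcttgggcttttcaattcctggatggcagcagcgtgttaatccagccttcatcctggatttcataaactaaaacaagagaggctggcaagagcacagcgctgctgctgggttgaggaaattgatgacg
Plaur: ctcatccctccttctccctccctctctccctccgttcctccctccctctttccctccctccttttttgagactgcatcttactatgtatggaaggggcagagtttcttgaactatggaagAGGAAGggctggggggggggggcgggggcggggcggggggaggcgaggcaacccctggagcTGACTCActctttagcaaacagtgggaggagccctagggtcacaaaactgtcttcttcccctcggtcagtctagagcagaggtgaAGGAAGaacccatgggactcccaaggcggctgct
Kcne3 first start: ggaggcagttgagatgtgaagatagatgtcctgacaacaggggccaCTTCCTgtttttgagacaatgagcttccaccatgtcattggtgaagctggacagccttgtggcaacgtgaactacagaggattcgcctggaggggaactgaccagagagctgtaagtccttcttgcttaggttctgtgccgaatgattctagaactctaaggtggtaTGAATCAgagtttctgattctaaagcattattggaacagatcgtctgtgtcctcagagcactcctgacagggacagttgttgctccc
Kcne3 second start: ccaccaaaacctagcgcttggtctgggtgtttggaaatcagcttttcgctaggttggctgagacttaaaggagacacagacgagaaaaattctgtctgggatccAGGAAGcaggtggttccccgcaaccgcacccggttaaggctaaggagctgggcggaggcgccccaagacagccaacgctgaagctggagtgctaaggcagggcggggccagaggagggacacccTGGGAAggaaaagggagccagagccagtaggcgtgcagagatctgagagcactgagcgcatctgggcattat
The Esm1 window held none of these letters. The Plaur window held an AP-1 match at position -69 and ETS matches at -130 and 17, counted from the start site. The first Kcne3 window held AP-1 at -37 and ETS at -204, and the second held RBPJ at -22 and ETS at -146. Among 32851 promoters of the same length, 25.6% held the RBPJ letters, 7.81% the AP-1 letters and 35.4% the ETS letters. No 2 of these motifs overlapped within the 4 windows. A match describes the letters only.

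All 5 genes were most abundant, or close to it, in the endothelial clusters 1 and 2, and each had its own order below them. Kcne3 was at 437, 411 and 126.9 CPM in clusters 1, 2 and 3 and at 4.05 CPM or less in the other 4. Esm1 was at 160.3, 161.01 and 11.5 CPM in clusters 1, 2 and 3, and at 0.24, 26.3, 0.51 and 0.44 CPM in clusters 4 to 7. The fall-off from cluster 2 to cluster 3 was thus steeper for Esm1 than for Kcne3 as read from these sums. Pdgfb was at 111.4, 97.2 and 15.6 CPM in clusters 1 to 3 and at 0.15, 8.77, 10.8 and 31.5 CPM in clusters 4 to 7. It was the only one of the 5 above 10 CPM in the megakaryocyte-marked cluster 7, where 9 of the 20 cells carried it. Angpt2 was at 43.6, 34.7, 16.9, 10.1, 48.9, 0.68 and 0.68 CPM in clusters 1 to 7. Plaur was at 50.8, 38.8, 19.8, 2.54, 43.1, 8.23 and 0.83 CPM. Angpt2 and Plaur thus reached, in the 13 cells of the mesenchymal-marked cluster 5, summed levels like those of clusters 1 and 2.

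Single cells set some of these sums. In cluster 5, 1 cell held 91.8% of the Esm1 reads, and the level was 2.38 CPM without it. In the same cluster 1 cell held 97.8% of the Pdgfb reads. In cluster 3, 1 cell held 65.5% of the Esm1 reads, and in cluster 4, 1 cell held 96.2% of the Plaur reads. Angpt2 and Plaur in cluster 5 were spread over more cells, at 10 CPM or more in 4 and 5 of 13, and stood at 20.4 and 28.2 CPM without the highest cell.

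**Figure D1:**
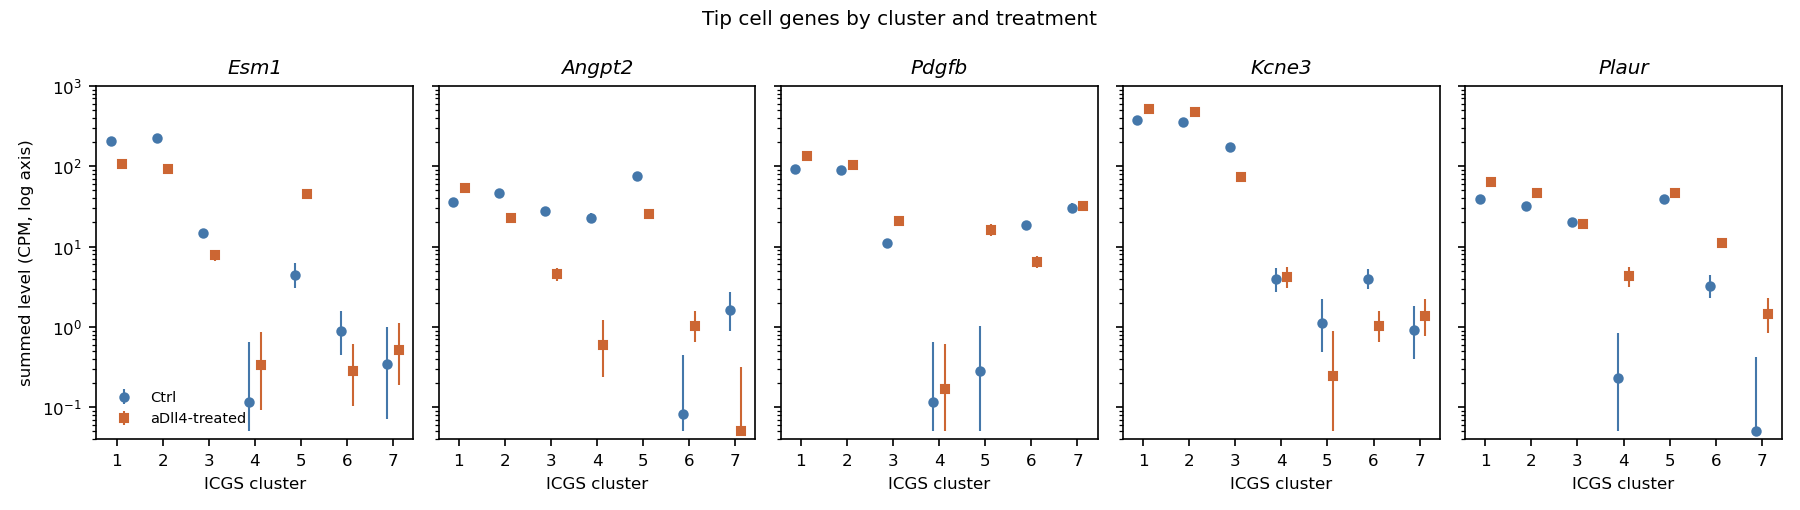
Summed level of each gene (CPM, log axis) in the 7 ICGS clusters, with circles for Ctrl and squares for aDll4-treated cells. Bars are exact Poisson 95% intervals, values under 0.05 CPM are drawn at 0.05, and Kcne3 stands highest of the 5 in clusters 1, 2 and 3 of both treatments.

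Ordered by the share of cells at 10 CPM or more, few neighbouring clusters differed beyond counting error. Kcne3 was carried by 83.6% of cells in cluster 1, 66.2% in cluster 2 and 29.9% in cluster 3. The step from cluster 1 to 2 was 17.4 points (Newcombe 95% interval 8.01 to 26.7) and that from 2 to 3 was 36.4 points (22.1 to 48.4). For Pdgfb the order was cluster 1 (67.2%), cluster 2, cluster 7 (9 of 20 cells) and cluster 3 (17.9%), and only the step from 7 to 3 had an interval clear of 0 (27.1 points, 5.06 to 49.1). Esm1 was carried by 34.97% and 33.8% of cells in clusters 1 and 2, a difference of 1.18 points (-9.17 to 11.3). No neighbouring clusters had an interval clear of 0 for Esm1, Angpt2 or Plaur. Clusters further apart in the order were not compared in this way. For Esm1 the 13 cells of cluster 5 stood between clusters 2 and 3. Its share was 33.8% in cluster 2 (exact Clopper-Pearson 95% interval 26.2 to 42.1) and 4.48% in cluster 3 (0.93 to 12.5), and these intervals do not overlap. No cell of cluster 4, 6 or 7 carried Esm1, and 0 of 33 cells in cluster 6 allows a share of up to 9.09% by the limit of 3 cells, or 10.6% by the exact Clopper-Pearson interval. The fewer genes seen per cell in cluster 3 (median 5937, against 7795 and 7370 in clusters 1 and 2) go with its lower shares, and their part in them was not tested.

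Between the treatments Esm1 differed the most of the 5. It stood at 155.1 CPM in Ctrl (exact Poisson 95% interval 153.4 to 156.7) against 67.6 CPM in treated cells (66.5 to 68.7), and the log2 ratio of treated over Ctrl was -1.19. This ratio is of CPM with 1 CPM added to both, and 0.41% of the 15204 genes had a lower one. Esm1 was the only one of the 5 at least 2-fold lower, where 0.888% of all measured genes were, and none of the 5 was at least 2-fold higher, where 1.16% were. Counting any size, 2 of 5 were lower, against 47.8% of all measured genes. Their median log2 ratio was 0.20, against 0.01 for all measured genes.

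The lower Esm1 sum lay in the height of the carrying cells more than in their number. Cells at 10 CPM or more made up 27.6% of Ctrl and 21.3% of treated cells, a difference of -6.30 points (-13.9 to 1.37). Among those cells the median was 395 CPM in 66 Ctrl cells and 145.9 CPM in 52 treated cells. At 500 CPM or more there were 29 Ctrl cells (12.1%) and 10 treated cells (4.10%), and at 1000 CPM or more 13 and 3. The highest Ctrl cell had 3218 CPM and the highest treated cell 1549 CPM. Below that, the levels of the cells of both treatments overlapped. Endothelial markers were also lower in treated cells, at 3638 against 4474 CPM in block 1 and 3624 against 4275 CPM in block 2. Several marker lists of other cells stood higher in treated cells. Erythroid markers stood at 44.1 against 255.9 CPM in block 1 and 41.03 against 142.7 CPM in block 2, in Ctrl and treated cells. Hematopoietic markers stood at 111.7 against 224.9 CPM and 255.3 against 301.6 CPM. Megakaryocyte markers stood at 229.3 against 428.7 CPM and 523 against 1424 CPM, and mesenchymal markers in block 2 at 193.2 against 513 CPM. The part of these in the difference of Esm1 or of the other 4 genes was not tested. Within clusters 1 to 3 alone Esm1 was at 185.4 CPM in Ctrl against 86.9 CPM in treated cells (log2 ratio -1.08).

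The 2 ligands differed in opposite directions. Angpt2 was at 35.2 CPM (34.4 to 36) in Ctrl against 27.5 CPM (26.8 to 28.2) in treated cells (log2 ratio -0.34). Its share of carrying cells was 22.6% and 18.9%, a difference of -3.74 points (-11.0 to 3.49). Pdgfb was at 68.9 CPM (67.8 to 69.98) in Ctrl against 83.98 CPM (82.8 to 85.2) in treated cells (log2 ratio 0.28). It was carried by 47.7% and 50% of cells, a difference of 2.30 points (-6.57 to 11.1). For both ligands the shares were within counting error of each other.

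The receptor and the channel subunit were higher in treated cells. Plaur was at 29.9 CPM (29.1 to 30.6) in Ctrl against 41.8 CPM (41 to 42.7) in treated cells (log2 ratio 0.47). It was carried by 27.2% of Ctrl and 38.9% of treated cells, a difference of 11.7 points (3.34 to 19.9). Only this one of the 5 intervals excluded 0, and it covers counting error over cells, not the spread between embryos. The difference was 14.8 points (4.74 to 24.5) in block 1 and 3.68 points (-10.5 to 17.5) in block 2. Kcne3 was at 284 CPM (282 to 286) against 328 CPM (325 to 330.1), with a log2 ratio of 0.20 and with 57.3% and 55.7% of cells carrying it. Its difference in share was -1.58 points (-10.3 to 7.21), so the higher sum did not come with a larger share of carrying cells. At 1000 CPM or more there were 16 Ctrl and 30 treated cells for Kcne3. Counting shares, 3 of 5 genes had a smaller share at 10 CPM or more in treated cells, against 36.8% of all measured genes. With 1 read as the limit the number was also 3, against 35.8%.

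**Figure D2:**
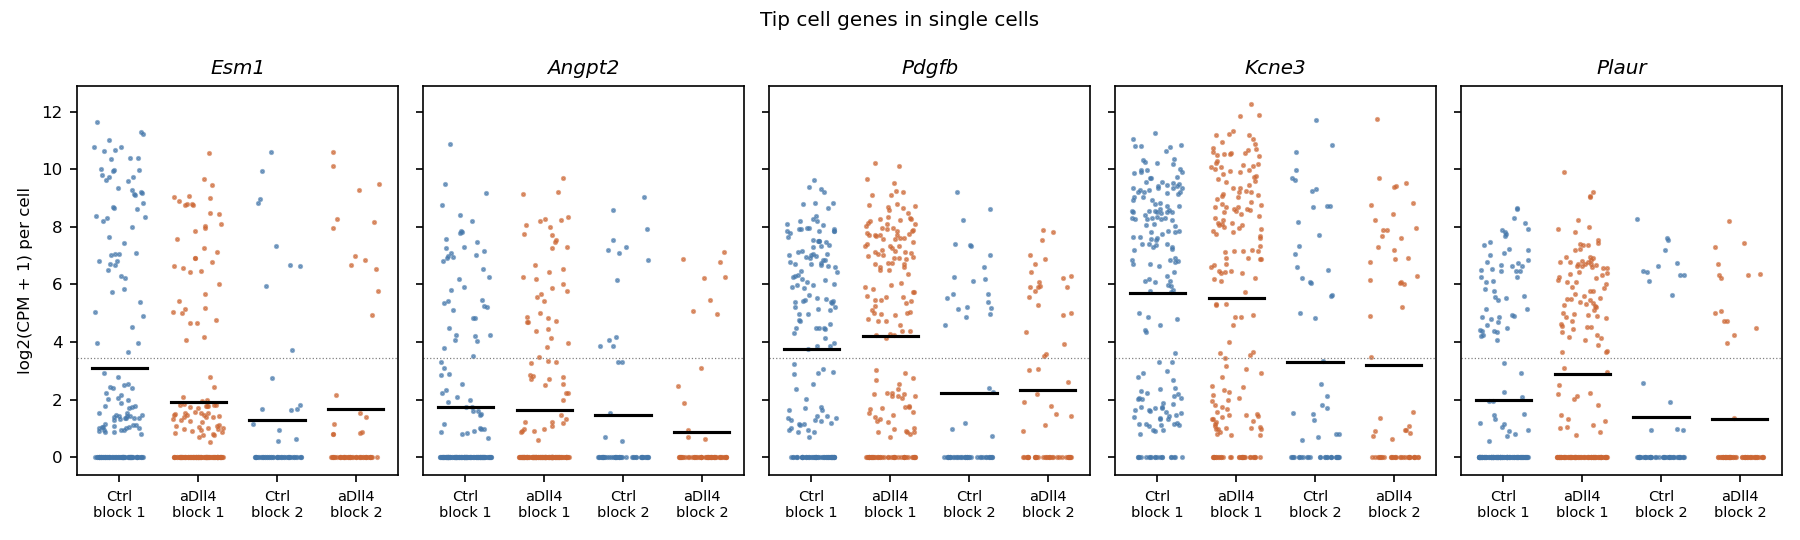
Level of each gene in every cell, as log2(CPM + 1), by treatment and block of library numbers. Bars are means over cells and the dotted line is 10 CPM. Esm1 shows fewer high treated than high Ctrl cells in block 1 (6 against 26 at 500 CPM or more) and like numbers in block 2 (4 against 3).

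The differences were not alike in the 2 blocks. Esm1 was at 188.5 CPM in Ctrl against 58.1 CPM in treated cells of block 1 (log2 ratio -1.68) and at 79.4 and 86.3 CPM in block 2 (0.12). In block 2, 1 Ctrl cell held 51.4% of the reads, and without the highest cell of each treatment the levels were 39.6 and 64.4 CPM. Cells at 500 CPM or more numbered 26 and 6 in block 1 and 3 and 4 in block 2. Angpt2 was close to equal in block 1 and lower in treated cells of block 2, with 36.2 and 36.1 CPM in block 1 (log2 ratio -0.0045) and 32.8 and 10.5 CPM in block 2 (-1.55). Pdgfb, Kcne3 and Plaur were higher in treated cells of block 1, with ratios of 0.53, 0.39 and 0.69. In block 2 they were lower, with ratios of -0.78, -0.48 and -0.19. At least 2-fold lower was 1 of 5 genes in each block, where 1.55% of measured genes were in block 1 and 5.42% in block 2. Of any size, 4 of 5 were lower in block 2, against 47.6% of measured genes.

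The 6 runs of library numbers gave Esm1 levels in Ctrl of 118.8, 131.3, 172.6, 341, 108.4 and 7.21 CPM. In treated cells of the same runs they were 58.6, 42.2, 89.3, 54.1, 96.7 and 75.3 CPM. Esm1 was thus lower in treated cells in 5 of 6 runs, and in run 6 the Ctrl cells were the lowest of all. In run 6, 1 of the 26 Ctrl cells held 99.3% of the Ctrl reads of Esm1. In run 5, Esm1 was at 53.2 CPM in Ctrl against 53.9 CPM in treated cells without the highest cell of each, so that 4 of 6 runs kept the lower treated level. Without run 4 the log2 ratio of Esm1 in the other cells was -0.74, so the sum over all cells was 2-fold lower only with that run included. Within runs 1 to 6 the ratios were -1.01, -1.62, -0.94, -2.63, -0.16 and 3.22.

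Angpt2 was lower in treated cells in 4 of 6 runs, at 33.2, 31.1, 20.7, 62.7, 39.7 and 15.6 CPM in Ctrl against 22, 53.7, 39.4, 28.6, 10.2 and 10.8 CPM in treated cells. Pdgfb was higher in 4 of 6, at 62, 49.1, 98.8, 104.6, 61.1 and 19.2 CPM in Ctrl against 72, 139.8, 82.5, 135.8, 31.3 and 24.7 CPM in treated cells. Its direction turned without run 2, to a log2 ratio of -0.06. Plaur was higher in 5 of 6, at 29.9, 27.5, 26, 43.5, 21.1 and 39.9 CPM in Ctrl against 38.1, 62.2, 37.1, 59.8, 37.8 and 7.56 CPM in treated cells. Run 6 was the exception for Plaur as it was for Esm1, with the sign turned. Kcne3 was higher in 3 of 6, at 389.6, 277.5, 197.99, 463.4, 189.8 and 211.9 CPM in Ctrl against 365.5, 376.6, 287.8, 591.6, 122.4 and 159.6 CPM in treated cells. Without the highest cell of each treatment in a run, Angpt2 in run 3 was at 15.3 CPM in Ctrl against 9.67 CPM in treated cells, which turned its sign. The highest treated cell there held 76.4% of the reads. For all 5 genes the range of the Ctrl runs overlapped that of the treated runs.

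**Figure D3:**
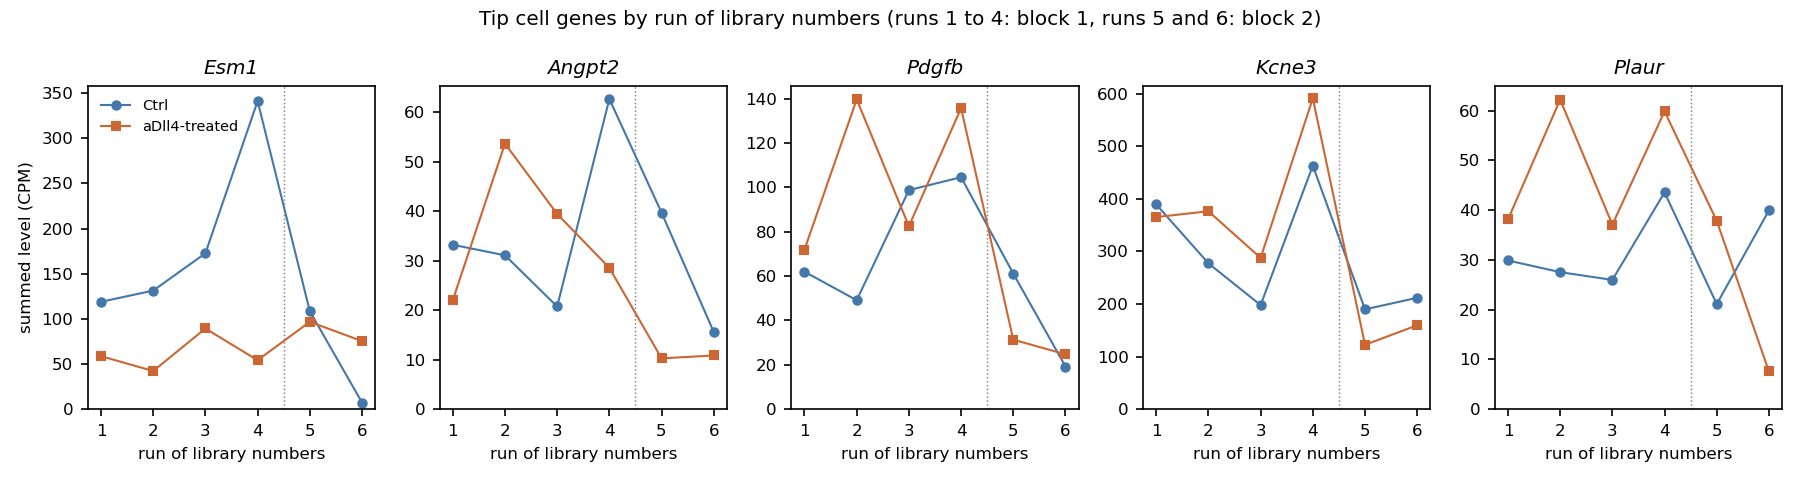
Summed level (CPM) of each gene in the 6 runs of library numbers, with circles for Ctrl and squares for aDll4-treated cells and a dotted line between the blocks. The Esm1 squares lie under the circles in 5 of 6 runs, and Ctrl in run 4 stands highest at 341 CPM.

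Cells of 1 sex could be compared in each block. Among Y-positive cells of block 1 (77 of them Ctrl) the log2 ratio was -1.71 for Esm1, -0.50 for Angpt2, 1.13 for Pdgfb, -0.07 for Kcne3 and 0.33 for Plaur. Among Xist-positive cells of block 2 (25 Ctrl, 61 treated) it was -0.45 for Esm1, -2.0 for Angpt2, -0.61 for Pdgfb, -1.19 for Kcne3 and -0.63 for Plaur. The Angpt2 sum was lower in treated cells of both subsets, also without the highest cell of each treatment. For Esm1 in block 2 the sign rested on 1 Ctrl cell with 75.2% of the reads. Without the highest cell of each treatment Esm1 was at 33.04 CPM in Ctrl against 68.4 CPM in treated cells, and it was carried by 3 of 25 Ctrl cells and 21.3% of treated cells. Plaur, which had the largest difference in share over all cells in the set, had ratios of opposite sign in the 2 subsets.

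**Figure D4:**
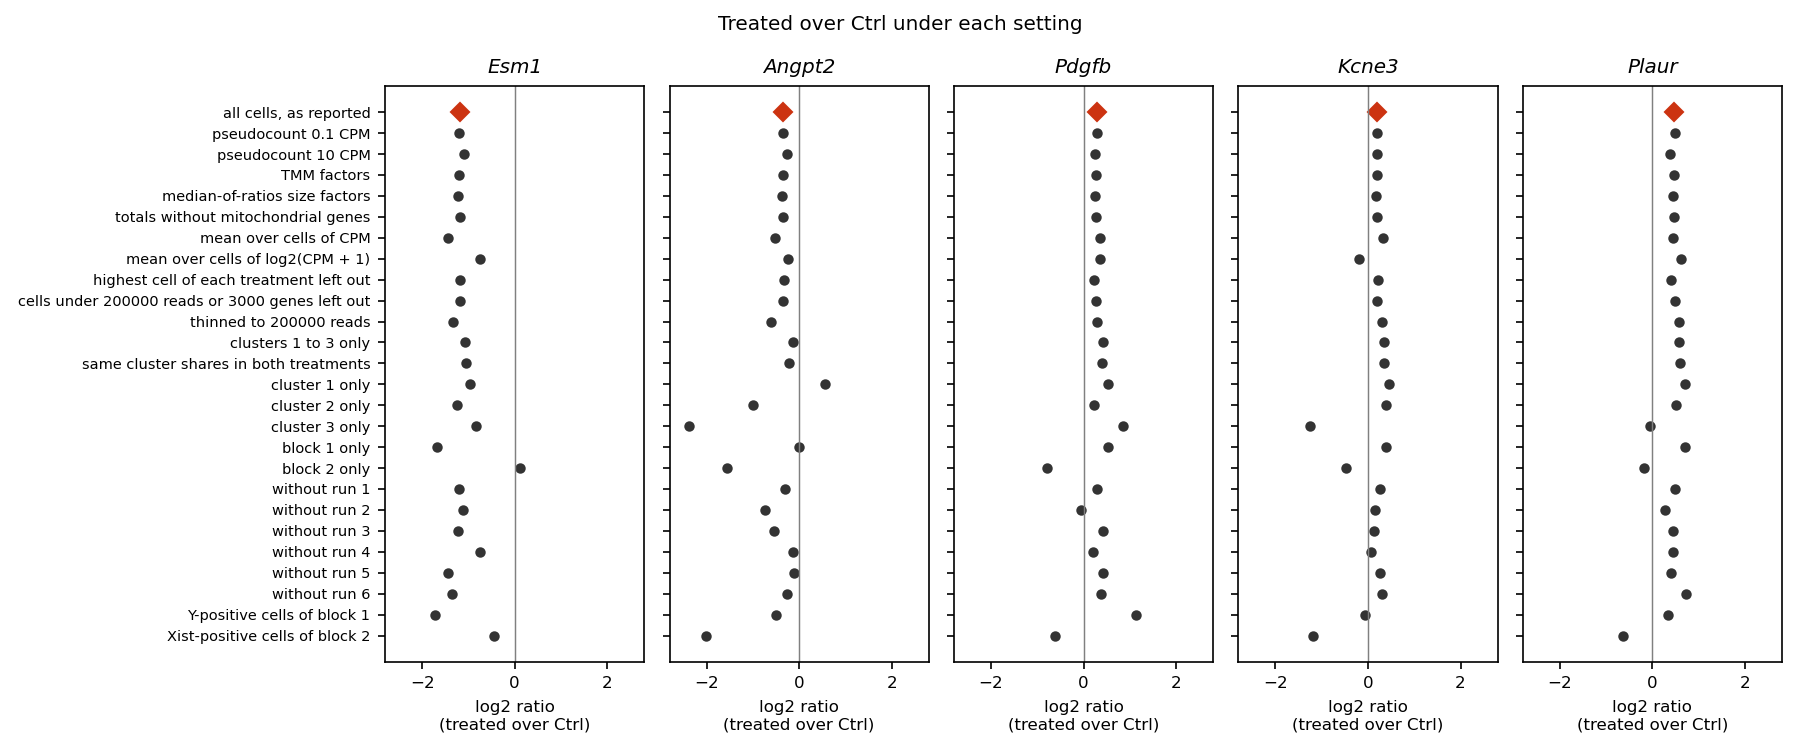
Log2 ratio of treated over Ctrl for each gene with all cells (diamond) and under 25 other settings (circles), with the vertical line at 0. Esm1 and Angpt2 lie below 0 in 24 settings each, and Plaur and Pdgfb above 0 in 22 each. Most settings share most of their cells, so these counts are not separate checks.

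Inside the endothelial clusters 1 and 2 Esm1 was lower in treated cells, with and without the highest cell of each treatment. In cluster 1 it was at 206.8 and 105.4 CPM (log2 ratio -0.97), while carrying cells made up 32.99% of Ctrl and 37.2% of treated cells. Their median was 564 CPM in Ctrl against 111.9 CPM in treated cells. In cluster 2 it was at 224.3 and 93.4 CPM (-1.26), and the share was 43.8% and 23.6%, a difference of -20.2 points (-34.3 to -4.82). The median of the carrying cells there was 179.3 CPM in Ctrl against 346 CPM in treated cells. So in cluster 1 the carrying cells were lower in level, and in cluster 2 they were fewer. The lower sums lay in block 1, where Esm1 was at 219.6 CPM in Ctrl against 75.5 CPM in treated cells of cluster 1 and at 256 against 86.2 CPM in cluster 2. In block 2 the same clusters had 168.1 against 217.9 CPM (16 and 13 cells) and 105.9 against 106.9 CPM (13 and 19 cells). These 2 sums rested on single cells, as 1 Ctrl cell held 70.1% and 62.8% of the reads. Without the highest cell of each treatment they were 54.3 against 127.4 CPM and 42.2 against 60.01 CPM. In cluster 3 it was at 14.7 and 7.76 CPM (-0.84), and 1 Ctrl cell held 96.2% of the reads. Without the highest cell of each treatment cluster 3 had 0.58 CPM in Ctrl against 2.97 CPM in treated cells, so that the direction turned. In cluster 1 Esm1 was the only one lower by any size, 1 of 5 where 51.9% of measured genes were, and none was at least 2-fold lower (3.64%). In cluster 2 it was 1 of 5 (4.56%), Esm1, and in cluster 3 it was 2 of 5 (12.4%), Angpt2 and Kcne3, with 4 of 5 lower by any size (47.5%), Esm1 among them only with its highest cells.

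Angpt2 was higher in treated cells of cluster 1, at 35.5 and 53.1 CPM (log2 ratio 0.57), with shares of 23.7% and 33.7%. In cluster 2 it was lower, at 46.1 and 22.5 CPM (-1.0), with 27.4% and 13.9%, a difference of -13.5 points (-26.3 to -0.25). In cluster 3 it was at 27.8 and 4.53 CPM (-2.38), carried by 5 of 31 Ctrl and 4 of 36 treated cells. This difference lay in block 2, with 41.3 CPM in 18 Ctrl cells and 1.82 CPM in 16 treated cells. In block 1, cluster 3 had 8.55 and 7.87 CPM. Over both blocks, 1 Ctrl cell of cluster 3 held 46.6% of the Ctrl reads of Angpt2. The levels there were 15.4 and 2.86 CPM without the highest cell of each treatment. The low value of cluster 2 lay mostly in block 2, where Angpt2 was at 76.5 CPM in 13 Ctrl cells and 5.47 CPM in 19 treated cells, against 37.9 and 31.7 CPM in block 1. In block 2 the highest cell held 72.4% of the reads in Ctrl and 89.7% in treated cells, and the levels were 23.6 and 0.61 CPM without these cells.

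Summed over both blocks, the other 3 genes were higher in treated cells of cluster 1, and in cluster 2 Kcne3 and Plaur were. In cluster 1 the ratios of Pdgfb, Kcne3 and Plaur were 0.69, 0.63 and 0.80 in block 1. In block 2 they were -0.55, -0.61 and 0.07 (16 Ctrl and 13 treated cells). In cluster 2 they were 0.52, 0.56 and 0.95 in block 1 and -0.64, 0.18 and -0.59 in block 2 (13 and 19 cells). Without the highest cell of each treatment, Pdgfb and Kcne3 had 0.18 and -0.52 in block 2 of cluster 2. Pdgfb had ratios of 0.53, 0.22 and 0.85 in clusters 1, 2 and 3, and that of cluster 2 was -0.0084 without the highest cell of each treatment. In cluster 3 its share was 6.45% in Ctrl and 27.8% in treated cells (21.3 points, 2.73 to 38.2). Kcne3 had ratios of 0.45, 0.39 and -1.26. In cluster 1 it was carried by 77.3% of Ctrl and 90.7% of treated cells (13.4 points, 2.62 to 23.7). Plaur had ratios of 0.70, 0.52 and -0.06, with a share in cluster 1 of 38.1% in Ctrl and 54.7% in treated cells (16.5 points, 2.05 to 30.1). In cluster 2 the Plaur share was 26% and 40.3% (14.3 points, -1.06 to 28.7).

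Cells with several of the 5 genes were most frequent in cluster 1. The mean number of genes per cell follows from the shares of the single genes, so it does not show that they go together. No number expected from those shares was computed. A cell there had on average 2.60 of the 5 at 10 CPM or more, against 2.14 in cluster 2, 0.85 in cluster 3 and 0.27 to 0.92 in clusters 4 to 7. All 5 were found in 15 cells, 13 of cluster 1 and 2 of cluster 2. In cluster 1 the mean was 2.38 in Ctrl and 2.85 in treated cells, and 4 or 5 genes were carried by 13.4% and 27.9%. In cluster 2 the mean was 2.25 in Ctrl and 2.03 in treated cells. Over clusters 1 to 3 it was 2.08 and 2.19.

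**Figure D5:**
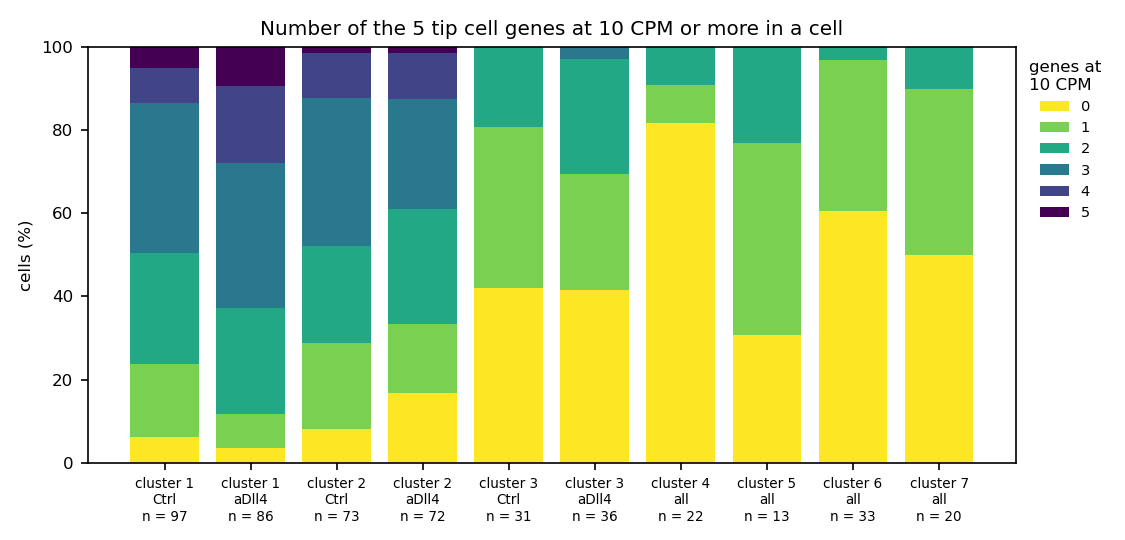
Share of cells (%) with 0 to 5 of the tip cell genes at 10 CPM or more, by cluster and, in clusters 1 to 3, by treatment. In cluster 1 the 2 darkest classes, 4 and 5 genes, make up 13.4% of Ctrl and 27.9% of treated cells.

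Over the 395 cells of clusters 1 to 3, levels of the 5 genes were weakly related, as log2(CPM + 1). Pearson r was 0.35 for Pdgfb with Kcne3, 0.33 for Esm1 with Pdgfb, 0.25 for Esm1 with Kcne3, 0.23 for Esm1 with Angpt2 and 0.04 for Esm1 with Plaur. Each cell is a library of its own depth. The r with total reads per cell was 0.0071 for Esm1, 0.06 for Angpt2, -0.0020 for Pdgfb, 0.06 for Kcne3 and 0.16 for Plaur. With the number of genes detected it was 0.05 for Esm1, 0.10 for Angpt2, 0.23 for Pdgfb, 0.24 for Kcne3 and 0.23 for Plaur. Pdgfb was carried by 74.1% of Esm1 cells and by 48.7% of cells without Esm1. Kcne3 was carried by 92.2% of treated Esm1 cells and by 52 of 65 Ctrl Esm1 cells. Esm1 was found in 44% of Angpt2 cells and Angpt2 in 34.5% of Esm1 cells.

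The genes most like each of the 5 over the same cells, among 10627 genes, differed from gene to gene. For Esm1 they were the chemokine receptor Cxcr4 (r 0.51), the netrin receptor Unc5b (0.45) and the Notch target Hey1 (0.42). For Cxcr4 the value was 0.61 within Ctrl and 0.29 within treated cells. For Pdgfb they were the filopodial motor Myo10 (0.40), the receptor tyrosine kinase inhibitor Spry4 (0.40) and Rell1 (0.39). For Kcne3 they were Lipt2 (0.54), which lies 15137 bases from Kcne3 on the same chromosome and does not overlap it, Igfbp3 (0.53), which binds insulin-like growth factors, and Rell1 (0.51). For Plaur they were the actin-capping protein Capg (0.33) and the nuclear lamin Lmna (0.31), and for Angpt2 only the transcription factor Foxf2 (0.31) passed r of 0.3. With Dll4 itself r was 0.46 for Kcne3, 0.39 for Esm1, 0.39 for Pdgfb, 0.19 for Plaur and 0.09 for Angpt2.

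Of 14 genes listed as partners of the 5 (receptors, ligands, proteases, inhibitors and channel subunits), 12 were measured. In treated cells 4 were lower and 8 higher, 0 and 1 of them by at least 2-fold, with a median log2 ratio of 0.50 that was -0.19 in block 1 and 0.46 in block 2. Of all measured genes 47.8% were lower, 0.888% and 1.16% were at least 2-fold lower and higher, and the median was 0.01. Mesenchymal markers stood at 573 CPM in Ctrl against 619 CPM in treated cells of block 1 and at 193.2 against 513 CPM in block 2. The pericyte and mesenchymal receptors Pdgfrb and Pdgfra had ratios of 2.10 and 1.73 in block 2, and the part of those cells in the list was not tested. Tek, the receptor of Angpt2, was at 254, 336 and 266 CPM in clusters 1 to 3 and its ratio was -0.24. Tie1, a co-receptor of Tek, had a ratio of -0.41, and Kcnq1, which pairs with Kcne3, had -0.25. Kcnq1 was at 84.4, 33.1 and 14.9 CPM in clusters 1, 2 and 3, the same order as Kcne3. Pdgfrb, Pdgfra and Plau are named beyond the naming rule, after their values were seen, as receptors of platelet-derived growth factors and the ligand of Plaur. Pdgfrb was at 272 CPM in cluster 5 and 88.9 CPM in cluster 4 and at 2.57 CPM or less in clusters 1 to 3. Plau was at 56.2, 62.6 and 35.1 CPM in clusters 1 to 3 and at 0.29 CPM or less in clusters 4 to 7.

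Other genes of the pathway mostly stood lower in treated cells, where 47.8% of all measured genes were lower, 0.888% by at least 2-fold, with a median of 0.01. The sum of endothelial markers was also lower in treated cells of both blocks, as given above, and its part in these lists was not tested. Of 16 other tip cell genes 13 were lower and 3 higher, 4 and 0 of them by at least 2-fold, with a median log2 ratio of -0.38 (-0.32 in block 1, -0.30 in block 2). The 3 higher ones, named beyond the naming rule, were Apln (0.78), Adm (0.35) and Nid2 (0.09), each higher in both blocks. Dll4, the Notch ligand, was at 356 CPM in Ctrl against 177.2 CPM in treated cells (-1.0). The lymphatic growth factor Vegfc was at 33.7 and 13.6 CPM (-1.25) and Igfbp3 at 1188 and 736 CPM (-0.69). Of 13 Notch signalling genes 10 were lower, 2 of them by at least 2-fold, with a median of -0.47 (-0.70 in block 1, -0.46 in block 2). Hey1 had a ratio of -1.11 in all cells, -2.03 in block 1 and 0.86 in block 2, a split between blocks with the signs of Esm1. The Notch feedback inhibitor Nrarp was at 11.8 and 5.85 CPM (-0.90), lower in both blocks. Of 8 stalk cell genes 7 were measured and 6 were lower, none by 2-fold, with a median of -0.27 (-0.50 in block 1, -0.04 in block 2). The VEGF decoy receptor Flt1 was at 726 CPM in Ctrl against 603 CPM in treated cells (-0.27), with a ratio of -0.50 in block 1 and 0.20 in block 2. The lists share genes, so their counts are not separate. Dll4 is in the tip cell and Notch lists, Jag1 and Nrarp in the Notch and stalk lists, and Tek in the partner and stalk lists.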

How the data were processed

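The deposited table holds raw counts of reads per gene and cell, made by the authors with the aligner GSNAP and the counter HTSeq 0.6.0 on mm10, per the submitters' processing notes. The sources used here name neither the annotation nor the counting settings. Smart-seq2 reads carry no molecular identifiers and no strand, per the labels' protocols. All cells were kept, and no doublet caller was run. Gene names came from GENCODE M21.

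Counts were summed over the cells of a group and divided by their summed gene-assigned reads (CPM) in Python 3.11.15 with pandas 2.3.3. Levels have exact Poisson 95% intervals, shares exact Clopper-Pearson intervals and differences of shares Newcombe intervals (scipy 1.17.1). They cover counting error only. Ratios are log2 of treated over Ctrl, after adding 1 CPM to each. A gene was measured if 5% of cells had a read. TMM factors came from edgeR 4.0.16. Ratios and the Poisson interval were tested on simulated Poisson counts, which lack the spread between cells seen here. The intervals of shares were not tested in this way. A cell was typed Y- or Xist-positive with 10 reads of one kind and fewer of the other.

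Members and lists were chosen with earlier results of these data known. From each list up to 3 measured genes with the largest difference of mean log2(CPM + 1) are named, and for each member up to 3 genes of highest r at 0.3 or more.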

Additional observations from a re-analysis of the deposited data

Results flagged for a closer look

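For 4 genes of the set, subsets of the libraries differed from each other under the same contrast, and none of these differences was tested. Esm1 had a log2 ratio of treated over Ctrl of -1.68 in block 1 and 0.12 in block 2. Pdgfb had 0.53 in block 1 and -0.78 in block 2. Angpt2 had 0.57 in cluster 1, -1.0 in cluster 2 and -2.38 in cluster 3. Within cluster 3 the Angpt2 ratio was -0.11 in block 1 and -3.90 in block 2. Kcne3 had 0.45 in cluster 1, 0.39 in cluster 2 and -1.26 in cluster 3. By block, Kcne3 had 0.39 in block 1 and -0.48 in block 2, and Plaur had 0.69 and -0.19.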

How the results depend on the processing

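Over 25 alternative settings the log2 ratio was below 0 in 24 for Esm1 (range -1.71 to 0.12), 24 for Angpt2 (-2.38 to 0.57), 3 for Pdgfb (-0.78 to 1.13), 5 for Kcne3 (-1.26 to 0.45) and 3 for Plaur (-0.63 to 0.73). Most of these settings share most of their cells, so the counts are not separate checks. Esm1 turned only in block 2, to 0.12, and Angpt2 only in cluster 1, with -0.0045 in block 1. Leaving out also the highest cell of each treatment within a block or cluster was chosen after seeing the data. It gave Esm1 0.69 in block 2 and 1.33 in cluster 3, Angpt2 0.08 in block 1 and Pdgfb -0.0084 in cluster 2. The number of the 5 genes lower in treated cells was 2 with all cells, 1 in cluster 1, 4 in cluster 3, 4 in block 2 and 5 among Xist-positive cells of block 2. The cause was not tested. With each run of library numbers left out in turn, Esm1 lay between -1.44 and -0.74, Angpt2 between -0.73 and -0.12, Pdgfb between -0.06 and 0.43, Kcne3 between 0.07 and 0.31 and Plaur between 0.28 and 0.73. As a mean over cells of log2(CPM + 1), which gives every cell equal weight, Kcne3 was -0.19. TMM and median-of-ratios scaling moved ratios by -0.01 and -0.03. The number of genes with a smaller share of cells was 3 under every limit tried, and 11 cells were left out when reads were thinned to 200000 a cell. The share of all genes past 2-fold was 2.05%, and 1.26% among genes read in at least 10% of cells, which leaves out lower genes. No paired analysis was possible because each treatment was 1 sample and the labels number cells, not animals. Counting error is small for summed levels, and their intervals leave out the spread between cells. In Ctrl cells of block 2, Esm1 was at 79.4 CPM (77.3 to 81.5), and at 39.6 CPM without its highest cell. The spread between embryos, which the labels do not let one estimate, also limits every comparison.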
